A study of Mus musculus with 24 samples.

Results

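The genes described here were 40 genes of glycolysis and of the cell's answer to low oxygen, taken by symbol from the 17017 genes of the deposited tables. They comprised 5 transporters of sugar and lactate, 18 enzymes of the glycolytic chain, 3 bifunctional enzymes that set fructose 2,6-bisphosphate, 3 kinases of pyruvate dehydrogenase, 6 regulators of hypoxia-inducible factor (HIF) and 5 of its target genes. They were measured by RNA-seq in primary alveolar macrophages, the resident phagocytes of the air spaces, from wild-type BALB/cJ mice. RNA was taken 20 h after stimulation from 8 groups of 3 libraries: IL-33+IL-13+IL-17A, IL-33+IL-13, IL-13+IL-17A, IL-13, IL-33+IL-17A, IL-33, IL-17A and Untreated. All groups shared strain, genotype and time, and the labels give no dose. Whether libraries of a group are from different mice or cultures is not in the labels, so p-values here reflect only library-to-library spread, possibly technical.

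Glycolysis breaks glucose down to pyruvate in the cytosol. Glucose enters through Slc2a1 (GLUT1), hexokinase traps it as glucose 6-phosphate, phosphofructokinase commits it to the pathway, and lactate dehydrogenase can turn the pyruvate into lactate, which leaves through the monocarboxylate transporters Slc16a1 (MCT1) and Slc16a3 (MCT4). Most steps have several isozymes with different kinetics and tissue use. HIF, a dimer of an alpha subunit such as Hif1a with Arnt, raises transcription of many of these genes. When oxygen is ample, the prolyl hydroxylases Egln1, Egln2 and Egln3 mark the alpha subunit for the ubiquitin ligase subunit Vhl, so the protein is controlled largely after translation, and RNA levels alone do not report its activity. IL-13 acts through STAT6 and, like IL-33, is a cytokine of type 2 inflammation in the lung, while IL-17A is best known for recruiting neutrophils.

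Recovered reads numbered 9.13 to 12.9 M per library (median 10.6 M, 24 libraries). Levels are the deposited TPM, whose gene length is the genomic span with introns, so TPM values here are compared between libraries and not between genes. Changes are differences in log2(TPM + 1) from limma over 13215 genes, with p-values adjusted over all of them by the Benjamini-Hochberg method. An adjusted p under 0.05 is a call. Untreated replicate 1, IL-17A replicate 2 and IL-33+IL-13+IL-17A replicate 2 stood apart from the other libraries on the second principal component. Of 12 alveolar macrophage markers, 10 averaged at least 1 TPM over all libraries, among them Siglecf and Itgax. Marco, at 0.402 TPM with IL-13 and 0.252 TPM without it, and Fabp1, at 0.98 and 1.02 TPM, did not. Car4 did so only through the libraries with IL-13, at 2.07 TPM with IL-13 and 0.116 TPM without it. The 12 markers summed to 9945 to 12702 TPM with IL-13 and 3286 to 3587 TPM without it. That sum moved mainly with Chil3, which averaged 4600 TPM with IL-13 and 372 TPM without it, and Ear2, at 3617 and 619 TPM in the same libraries. Siglecf, another of these markers, went the other way, at 296 TPM with IL-13 and 527 TPM without it, a difference of -0.83 (limma, adjusted p = 2.62e-15). The summed level of the 3 of 6 neutrophil markers in the tables was 67.3 to 127 TPM with IL-13 and 136 to 177 TPM without it, and no marker of these lists was at 0 throughout. The 3 of 6 epithelial markers summed to 1.38 to 2.71 and 3.73 to 5.29 TPM in the same libraries, and the 3 of 6 fibroblast markers to 2.22 to 4.0 and 4.34 to 6.32 TPM. The 6 of 7 markers of monocytes and interstitial macrophages summed to 56.7 to 74.1 TPM with IL-13 and 54.8 to 71.3 TPM without it, and the 5 of 6 endothelial markers to 6.58 to 12.1 and 8.45 to 12.5 TPM. The part of these markers in the results was not tested, and in such bulk RNA fewer cells of a type and less RNA per cell cannot be told apart.

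IL-13 moved most of these genes, in both directions. Averaged over the 4 settings in which it was given (alone, with IL-17A, with IL-33 and with both), 15 of the 38 tested members were higher with IL-13, 19 were lower and 4 were not called, where 50.9% of all tested genes were called, 20.01% higher and 30.9% lower. The largest increases were those of Ldha by 0.89, Pgk1 by 0.73, Slc16a1 by 0.71, Hk2 by 0.65, Eno1 by 0.61 and Pfkfb4 by 0.57. Ndrg1 had the largest decrease, at -1.80, followed by Pfkfb3 at -0.51, Slc16a3 at -0.44, Eno3 at -0.40 and Ldhb at -0.40. The median over the tested members was -0.07, beside -0.05 over all tested genes, so increases and decreases offset each other. With median-ratio scaling of the libraries the members divided into 15 higher and 13 lower, and of all calls 50.5% were higher, against 39.3% with TPM as deposited. The 6 members that lost their call under that scaling, Pgam1, Tpi1, Hk3, Egln1, Egln2 and Vhl, had the smallest decreases among those called, from -0.11 to -0.06.

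The 4 settings share no libraries, and each gave its own values for the members. IL-13 alone called 15 members higher and 10 lower, where 29.8% of all genes were called, 14.1% higher and 15.7% lower. IL-13 beside IL-17A called 15 and 12, where 29.8% of all genes were called, 12.2% and 17.6%. IL-13 beside IL-33 called 10 and 9, where 23.9% of all genes were called, 11.2% and 12.8%. IL-13 beside both called 12 and 13, where 32.7% of all genes were called, 10.97% and 21.7%. Under median-ratio scaling the higher genes made up 52.4% of all calls beside both cytokines, against 33.6% with TPM as deposited. Of the 38 members, 9 were called higher in all 4 settings, 6 were called lower in all 4 and 6 in none, and 32 had the same sign throughout. How many of all tested genes met these rules was not counted, so these counts only describe the members. The 9 were Slc16a1, Hk2, Aldoa, Gapdh, Pgk1, Eno1, Ldha, Pfkfb4 and P4ha1, and the 6 were Slc16a3, Pfkl, Aldoc, Pfkfb3, Bnip3l and Ndrg1. For the first 9 genes all 12 libraries with IL-13 lay above all 12 without it, and for 8 genes, the 6 just named with Eno3 and Bnip3, they lay below. Of all tested genes 15.1% were separated, 6.18% above and 8.87% below.

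**Figure D1:**
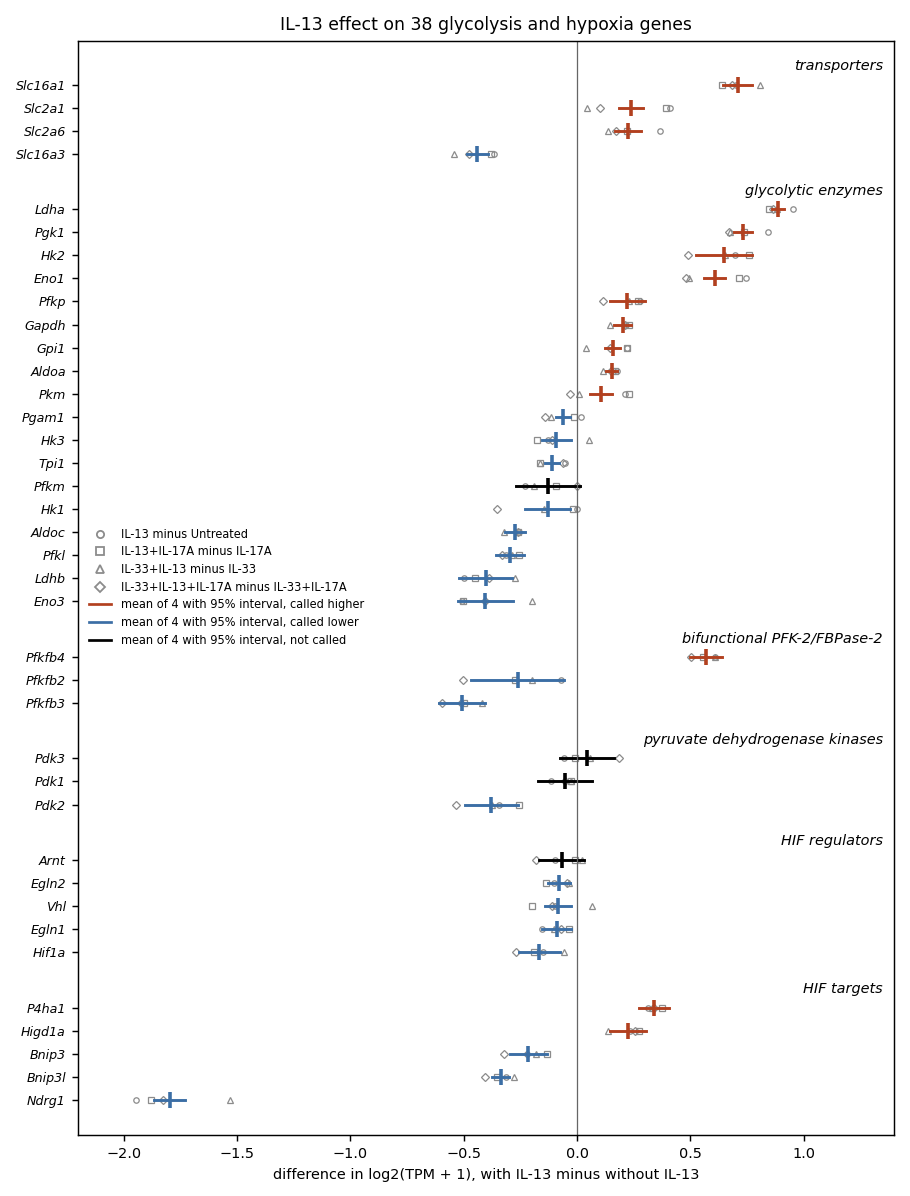
Difference in log2(TPM + 1) made by IL-13 for the 38 tested members, grouped by role. Coloured lines give the mean over 4 settings with its 95% interval and grey symbols the 4 settings, which share no libraries. Within most roles some members lie right of 0 and others left of it, and Ndrg1 lies far to the left at -1.80.

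Annotated genes on the other strand overlapped 18 members, and how strand was handled in counting is not given in the sources used here, so their reads cannot be told apart from those of the partner. These were Slc2a1, Hk1, Hk2, Hk3, Gpi1, Pfkm, Pfkp, Aldoa, Tpi1, Gapdh, Pfkfb2, Pfkfb3, Pdk2, Hif1a, Egln2, Bnip3, Higd1a and Ndrg1. The other 22, among them Ldha, Pgk1, Slc16a1, Slc16a3, Pfkl, Pfkfb4, Pkm and Eno1, had no partner on the other strand. Annotated genes on the same strand overlapped 9 members, among them Slc16a1, Pkm, Hif1a and Pfkfb2, and strand cannot set their reads apart.

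Among the transporters, IL-13 raised 3 of the 4 tested and lowered 1, and the 2 lactate carriers went opposite ways. Slc16a1, or MCT1 (ENSMUSG00000032902, chr3:104638668-104658462, mm10), had 44.6, 47 and 42.6 TPM in the IL-13 libraries, against 25.3, 28.6 and 27.5 TPM in the Untreated libraries. Over all groups it had 42.4 to 50.7 TPM (median 44.7) with IL-13 and 25.3 to 29.3 TPM (median 26.9) without it. No library with IL-13 overlapped one without, and the averaged difference was 0.71 (limma, SE 0.0297, adjusted p = 1.92e-13), a ratio of means of 1.66. Slc16a3, or MCT4, the carrier that exports lactate from strongly glycolytic cells (ENSMUSG00000025161, chr11:120948480-120960868), had 129, 121 and 128 TPM in the IL-13 libraries and 159, 165 and 164 TPM in the Untreated libraries. It ranged over 112 to 134 TPM (median 124) with IL-13 and 159 to 182 TPM (median 166) without it, again with no overlap, and differed by -0.44 (limma, SE 0.0223, adjusted p = 3.23e-12). Per kilobase of transcript, Slc16a1 made up 16.9% ± 1.3 with IL-13 and 8.29% ± 0.41 without it of the reads of the pair (SD, n = 12 each), so Slc16a3 remained the larger of the 2 in every library.

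The glucose transporter Slc2a1 had 60.8, 59.3 and 60.5 TPM with IL-13 alone and 41.9, 47.6 and 46.1 TPM in Untreated libraries, which did not overlap. Its averaged difference was 0.24 (limma, SE 0.0253, adjusted p = 1.86e-07), and its size differed with IL-33, as the interaction test below shows. Slc2a6, or GLUT6, a transporter found on lysosomes of mouse macrophages, averaged 242 ± 11.8 TPM with IL-13 and 207 ± 13.2 TPM without it (SD, n = 12 each) and differed by 0.22 (limma, SE 0.0275, adjusted p = 1.18e-06). Slc2a3, the high-affinity neuronal-type glucose transporter, was at 0.0773 to 0.168 TPM with IL-13 and 0.0816 to 0.215 TPM without it, below the 1 TPM needed for the test.

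Of the 18 glycolytic enzymes, 9 were higher with IL-13, 8 were lower and Pfkm was not called, with a median difference of 0.02. The 9 included an enzyme of nearly every step from hexokinase to lactate dehydrogenase, and triose phosphate isomerase and phosphoglycerate mutase were the steps with no member raised. Ldha, the muscle-type subunit of lactate dehydrogenase, which favours the making of lactate (ENSMUSG00000063229, chr7:46841475-46855627), had 813, 797 and 820.2 TPM in the IL-13 libraries and 414, 418 and 423 TPM in the Untreated libraries. Over all groups it had 750.5 to 820.2 TPM (median 779) with IL-13 and 405 to 437 TPM (median 422) without it. The lowest library with IL-13 thus lay far above the highest without, with a ratio of means of 1.85 and a difference of 0.89 (limma, SE 0.0127, adjusted p = 2.15e-20). Pgk1, phosphoglycerate kinase, which makes the first ATP of the pathway (ENSMUSG00000062070, chrX:106187100-106203699), had 217, 205 and 212 TPM with IL-13 and 114, 119 and 120.0 TPM untreated. Its difference was 0.73 (limma, SE 0.0194, adjusted p = 1.65e-16), and its ranges of 185 to 217 TPM (median 199.7) with IL-13 and 114 to 129 TPM (median 119) without it were apart. Hk2, the inducible hexokinase that binds mitochondria (ENSMUSG00000000628, chr6:82725025-82774454), had 34, 36.3 and 34.9 TPM with IL-13 and 18.6, 23.3 and 22 TPM untreated, a difference of 0.65 over the 4 settings (limma, SE 0.0592, adjusted p = 2.07e-08). Of its libraries with IL-13 the lowest, at 24.8 TPM, was replicate 2 of IL-33+IL-13+IL-17A, one of the 3 that stood apart, and it still lay above the highest without IL-13, at 24.1 TPM.

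Eno1, the widespread enolase (ENSMUSG00000063524, chr4:150236721-150248879), had 367, 354 and 374 TPM in the IL-13 libraries and 217, 214 and 221 TPM in the Untreated libraries, and its averaged difference was 0.61 (limma, SE 0.0222, adjusted p = 2.33e-14). Its reads are uncertain, since the near-identical copies Gm4735 and Eno1b held reads equal to 24.3% and 21.8% of its own. The summed copies had 199 ± 10.3 reads per M library reads with IL-13 and 120 ± 8.46 untreated (SD, n = 3 each), so their level was higher as well, and Eno1 with its copies had 628 ± 24.8 and 377.5 ± 16.8. Gapdh, glyceraldehyde 3-phosphate dehydrogenase, averaged 2514 ± 80.2 TPM with IL-13 and 2187 ± 61.6 TPM without it (SD, n = 12 each) and differed by 0.20 (limma, SE 0.0174, adjusted p = 9.89e-09). Its copies in the genome held reads equal to 13.9% of its own. The remaining increases were smaller: 0.22 for Pfkp, the platelet-type phosphofructokinase, 0.16 for Gpi1, glucose 6-phosphate isomerase, 0.15 for Aldoa, the muscle-type aldolase, and 0.10 for Pkm, pyruvate kinase. Pfkp averaged 25.9 ± 1.93 TPM with IL-13 and 22 ± 0.897 TPM without it (SD, n = 12 each), with overlapping groups. For Aldoa the groups were apart, at 2623 to 2851 TPM (median 2700.2) with IL-13 and 2403 to 2484 TPM (median 2435) without it. Gapdh, often used as a reference gene for RNA levels, was likewise higher in all 12 libraries with IL-13.

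Those that were lower with IL-13 included the minor isozymes Aldoc, Eno3 and Ldhb. Aldoc, the brain-type aldolase, averaged 314 ± 12.2 TPM with IL-13 and 380.3 ± 12.9 TPM without it (SD, n = 12 each), with all 12 libraries lower, and differed by -0.27 (limma, SE 0.022, adjusted p = 3.23e-09). Pfkl, the liver-type phosphofructokinase, averaged 47.3 ± 2.39 TPM with IL-13 and 58.3 ± 2.45 TPM without it, also without overlap, and differed by -0.30 (limma, SE 0.0303, adjusted p = 1.01e-07). Eno3, the muscle enolase, averaged 10.8 ± 1.05 TPM with IL-13 and 14.6 ± 1.84 TPM without it and differed by -0.40 (limma, SE 0.0584, adjusted p = 8.78e-06), while Ldhb, the heart-type lactate dehydrogenase subunit, averaged 4.37 ± 0.468 TPM with IL-13 and 6.12 ± 0.745 TPM without it and differed by -0.40 (limma, SE 0.0563, adjusted p = 5.88e-06). The groups of Eno3 were apart, and those of Ldhb overlapped at their edges. The averaged differences of Hk1 (-0.13), Tpi1 (-0.11), Hk3 (-0.09) and Pgam1 (-0.06) were called but small, and their groups overlapped. For Hk1 and Pgam1 the larger decreases were in the settings with IL-33. The limma interaction test below called this difference for Pgam1 and not for Hk1. Alone, with IL-17A, with IL-33 and with both, Hk1 differed by -0.0008, -0.02, -0.14 and -0.36. In the same order Pgam1 differed by 0.02, -0.01, -0.12 and -0.14, Hk3 by -0.13, -0.18, 0.05 and -0.11, and Tpi1 by -0.05, -0.17, -0.17 and -0.06. Hk1, a widespread hexokinase, averaged 4.26 ± 0.482 TPM with IL-13 and 4.75 ± 0.399 TPM without it, Tpi1, triose phosphate isomerase, averaged 618 ± 20.5 TPM with IL-13 and 668 ± 21.6 TPM without it, and Hk3, the hexokinase of blood cells, averaged 378 ± 29.97 TPM with IL-13 and 401 ± 16.9 TPM without it. Pgam1 averaged 636 ± 33.7 TPM with IL-13 and 664 ± 16.9 TPM without it (SD, n = 12 each). Hk1 lost its call when Untreated replicate 2, IL-17A replicate 3 or IL-33 replicate 3 was left out, with adjusted p of 0.0501 to 0.0517. With all 3 cytokines Hk1 had 3.71, 3.02 and 4.34 TPM, lowest in replicate 2, which stood apart on the second principal component. Pfkm, the muscle-type phosphofructokinase, averaged 0.81 ± 0.218 TPM with IL-13 and 0.97 ± 0.139 TPM without it, and its difference of -0.13 was not called (limma, SE 0.0675, adjusted p = 0.126).

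**Figure D2:**
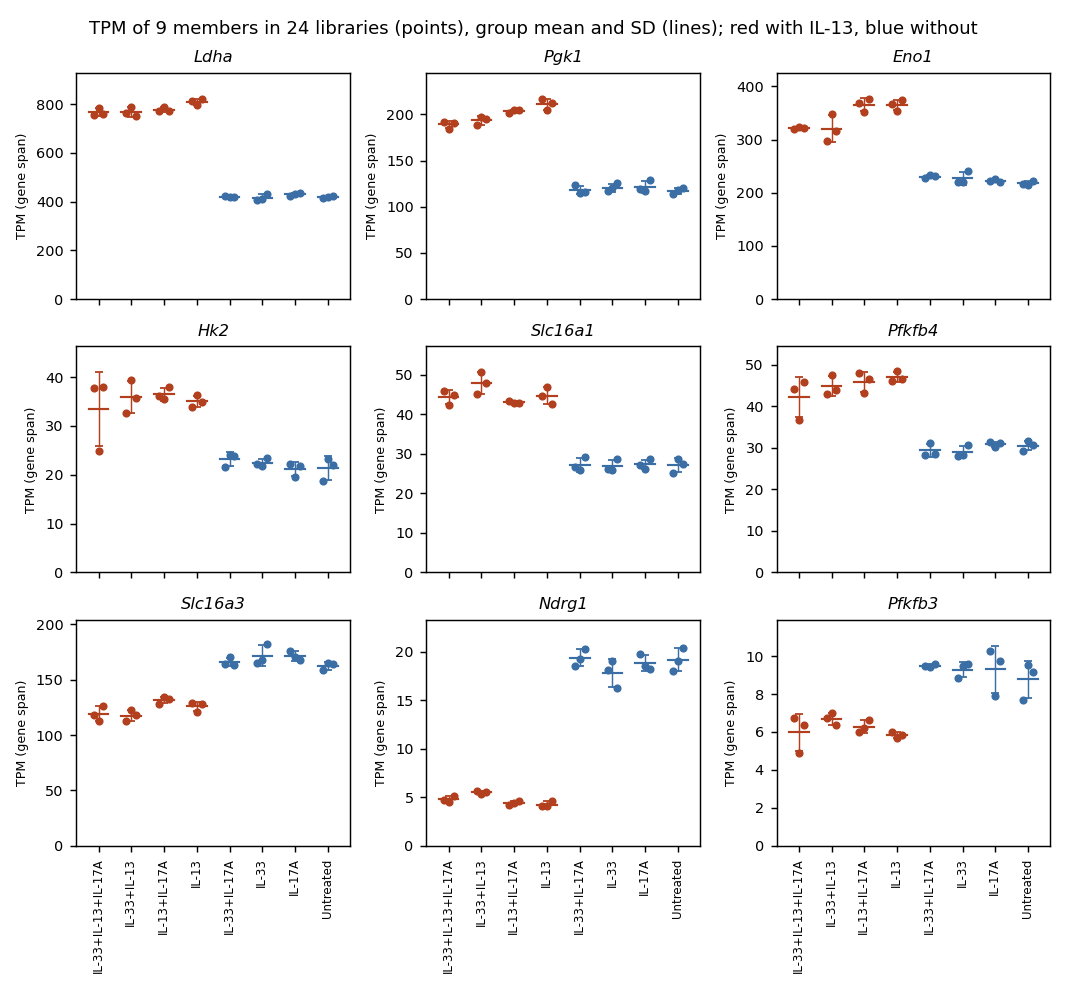
TPM over the gene span of 9 members in each of the 24 libraries, with the group mean and SD, for the 4 groups with IL-13 (red) and the 4 without it (blue). In every panel the red points all lie on one side of the blue ones: above for the first 6 genes and below for Slc16a3, Ndrg1 and Pfkfb3.

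Isozyme shares were taken from each family's reads per kilobase of transcript, as a description without a test. The share of Hk2 among the hexokinases was 19% ± 1.29 with IL-13 and 12.1% ± 0.518 without it (SD, n = 12 each), and that of Hk3, the most abundant, was 71.6% ± 2.16 with IL-13 and 77.4% ± 0.866 without it. Pfkp made up 49.5% ± 1.45 with IL-13 and 40.4% ± 1.06 without it of phosphofructokinase reads and Pfkl 49.6% ± 1.41 with IL-13 and 58.6% ± 1.09 without it. The first of these shares was higher with IL-13 in every library and the second lower. On this measure Pfkp and Pfkl came out level with IL-13, but their order rests on the transcript lengths used. These were a mean of 1984 bases for Pfkp and 1213 for Pfkl, while recovered reads averaged 1715 for Pfkp and 1263 for Pfkl over all libraries. Among the smaller partners, Aldoc was 8.3% ± 0.267 with IL-13 and 10.8% ± 0.364 without it of the aldolase pair, Eno3 was 1.45% ± 0.206 with IL-13 and 2.95% ± 0.373 without it of the Eno1 and Eno3 pair, and Ldhb was 0.789% ± 0.0837 with IL-13 and 2.02% ± 0.242 without it of the lactate dehydrogenase pair. For each of these shares the libraries with IL-13 did not overlap those without it. The glucose transporters Slc2a1 and Slc2a6 and the prolyl hydroxylases Egln1 and Egln2 had overlapping shares. Slc2a1 was 54.2% ± 1.74 with IL-13 and 53.9% ± 1.09 without it, and Egln2 was 76.3% ± 1.05 with IL-13 and 76% ± 0.756 without it.

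**Figure D3:**
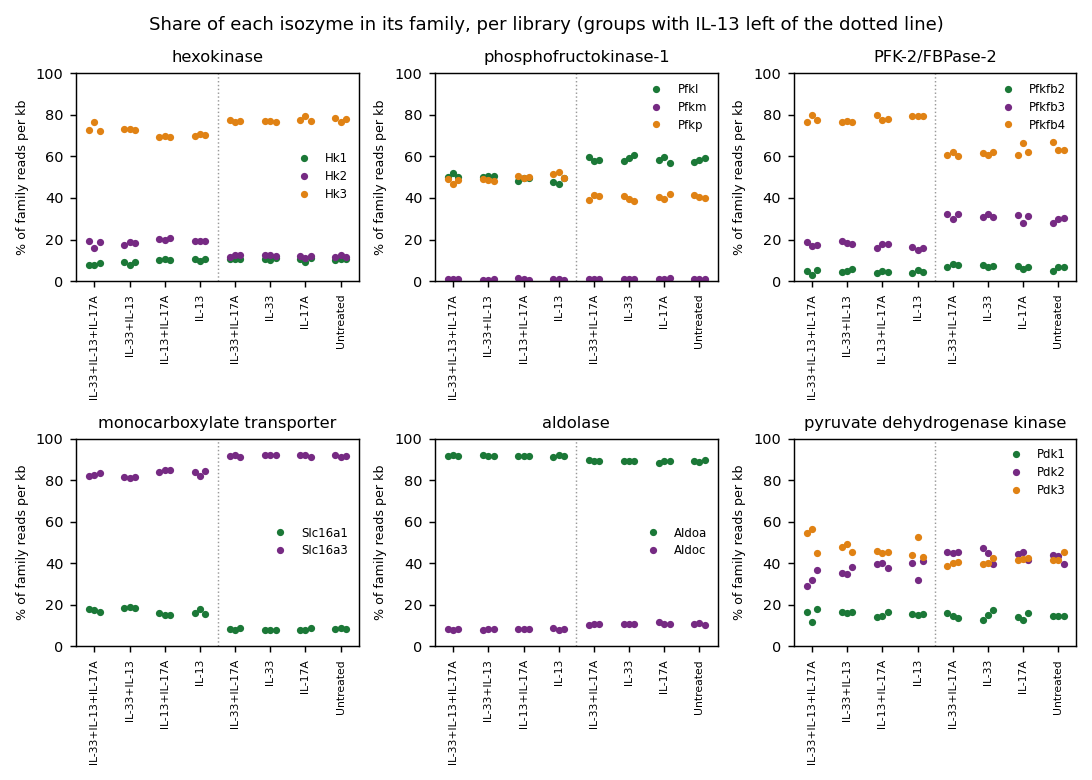
Share of each isozyme in its family's reads per kilobase of transcript, in percent, for each of the 24 libraries by group, with the groups that received IL-13 left of the dotted line. Hk2, Pfkp, Pfkfb4 and Slc16a1 have larger shares left of the line and Hk3, Pfkl, Pfkfb3 and Slc16a3 smaller ones, while the pyruvate dehydrogenase kinases overlap.

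The bifunctional enzymes make and remove fructose 2,6-bisphosphate, the strongest activator of phosphofructokinase, and IL-13 raised 1 of the 3 and lowered the others. Pfkfb4 (ENSMUSG00000025648, chr9:108991778-109032228) had 46.1, 48.5 and 46.7 TPM in the IL-13 libraries and 29.4, 31.8 and 30.6 TPM in the Untreated libraries. Pfkfb3, the isozyme with the highest kinase activity relative to phosphatase activity (ENSMUSG00000026773, chr2:11471433-11554077), had 5.98, 5.68 and 5.83 TPM in the IL-13 libraries and 7.68, 9.51 and 9.17 TPM in the Untreated libraries. Neither pair of groups overlapped, here or over all 24 libraries, and the averaged differences were 0.57 for Pfkfb4 (limma, SE 0.0333, adjusted p = 2.95e-11) and -0.51 for Pfkfb3 (limma, SE 0.0481, adjusted p = 3.57e-08). Pfkfb2, the heart-type isozyme, had 3.38, 4.91 and 3.73 TPM with IL-13 and 3.04, 5.1 and 4.76 TPM untreated, with overlap. Its averaged difference of -0.26 was called (limma, SE 0.0978, adjusted p = 0.0324) but lost the call in 8 of the 24 fits that left out 1 library (Untreated replicate 2 or 3, IL-13 replicate 1 or 3, IL-17A replicate 1 or 3, IL-33+IL-17A replicate 2 or IL-33+IL-13 replicate 1), with adjusted p of 0.0519 to 0.0628. Within the family the share of Pfkfb4 was 78.2% ± 1.45 with IL-13 and 62.4% ± 2.19 without it and that of Pfkfb3 was 17.2% ± 1.23 with IL-13 and 30.6% ± 1.56 without it (SD, n = 12 each).

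The pyruvate dehydrogenase kinases switch off the enzyme complex that sends pyruvate into the mitochondrial citrate cycle. Pdk2, the most widely expressed of them, had 8.84, 7.46 and 8.43 TPM in the IL-13 libraries and 10.2, 11.1 and 10.9 TPM in the Untreated libraries, which did not overlap, and its averaged difference was -0.38 (limma, SE 0.0551, adjusted p = 9.83e-06). Pdk1, the kinase best known as a HIF target, had 3.2, 3.37 and 2.99 TPM with IL-13 and 3.22, 3.52 and 3.85 TPM untreated. Pdk3 had 2.4, 3.06 and 2.18 TPM with IL-13 and 2.38, 2.6 and 3.07 TPM untreated. Both overlapped and neither was called, with averaged differences of -0.05 for Pdk1 (95% interval -0.17 to 0.06) and 0.04 for Pdk3 (95% interval -0.07 to 0.16).

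Differences of the HIF regulators were small. Of the 5 tested, 4 were lower with IL-13 on average and Arnt was not called, and none was called with IL-13 alone against Untreated. Hif1a, the oxygen-regulated subunit (ENSMUSG00000021109, chr12:73901375-73947530), had 22.7, 22.2 and 22 TPM in the IL-13 libraries and 22.1, 25.7 and 27.1 TPM in the Untreated libraries, with overlapping ranges. Its averaged difference was -0.17 (limma, SE 0.0431, adjusted p = 0.00298). Egln1, the main HIF prolyl hydroxylase, had 14.9, 14 and 16.2 TPM with IL-13 and 16, 16.8 and 17.7 TPM untreated, with overlap. Vhl had 42.6, 43.9 and 43.1 TPM with IL-13 and 44.2, 47.4 and 47.3 TPM untreated, without overlap in this pair. Egln2, which is known mainly from the nucleus, averaged 85.4 ± 3.34 TPM with IL-13 and 90.4 ± 3.06 TPM without it (SD, n = 12 each). The averaged differences of Egln1, Vhl and Egln2 were -0.09, -0.09 and -0.08, and all 3 lost the call under median-ratio scaling, with adjusted p of 0.269 to 0.362 there. Arnt, the constant partner of Hif1a, differed by -0.07 (95% interval -0.17 to 0.03). Egln3, the hydroxylase that is itself strongly induced by HIF, was at 0.205 to 0.495 TPM with IL-13 and 0.30 to 0.767 TPM without it and was not tested. A fit without the filter on low values gave it a difference of -0.16 (limma, SE 0.0526, adjusted p = 0.0186).

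The 5 HIF target genes outside glycolysis divided into 2 that were higher and 3 that were lower. Ndrg1, a cytosolic protein of stress responses and a much used marker of hypoxia (ENSMUSG00000005125, chr15:66929318-66969640), had 4.04, 4.03 and 4.6 TPM in the IL-13 libraries and 18, 19.1 and 20.4 TPM in the Untreated libraries. Over all groups it had 4.03 to 5.63 TPM (median 4.6) with IL-13 and 16.3 to 20.4 TPM (median 18.8) without it. The 12 libraries with IL-13 were all far below the others, with a ratio of means of 0.251 and a difference of -1.80 (limma, SE 0.0326, adjusted p = 6.83e-19). Bnip3 and Bnip3l, which mark mitochondria for removal by autophagy, were lower as well. Bnip3l (ENSMUSG00000022051, chr14:66985239-67008877) had 159, 155 and 146 TPM with IL-13 and 182, 196 and 193 TPM untreated, and its averaged difference was -0.34 (limma, SE 0.017, adjusted p = 2.99e-12), while Bnip3 averaged 5.26 ± 0.315 TPM with IL-13 and 6.27 ± 0.492 TPM without it and differed by -0.22 (limma, SE 0.039, adjusted p = 1.13e-04). P4ha1, a collagen prolyl hydroxylase of the endoplasmic reticulum (ENSMUSG00000019916, chr10:59323296-59373304), had 20.9, 19.5 and 19.8 TPM with IL-13 and 15.4, 15.6 and 16.9 TPM untreated and was higher by 0.34 (limma, SE 0.0315, adjusted p = 2.61e-08). Higd1a, a mitochondrial protein that helps cells through oxygen shortage, averaged 29.4 ± 1.99 TPM with IL-13 and 25 ± 1.51 TPM without it and was higher by 0.22 (limma, SE 0.0374, adjusted p = 4.68e-05), with groups that overlapped.

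Promoters were compared because members of both directions are known HIF targets. RefSeq promoter windows on GRCm38.p6, from 250 bases before to 50 after a gene's start, matched 37 of the 40 members. Slc2a3, Bnip3l and Ndrg1 had none, so the lowered HIF targets Bnip3l and Ndrg1 are absent from the counts below. Only the 250 bases before the start were searched. Each member was given a single window, that nearest its gene's start, while the share over all windows was taken without such a choice or a filter on expression. The shares of members and of all windows are therefore not like for like. A hypoxia response element core, ACGTG or GCGTG on either strand, was in 31 of the 37 windows (83.8%) and in 38.6% of all 32851 windows. It was in 12 of the 15 windows of members that were higher with IL-13 and in 14 of the 17 windows of members that were lower, so the motif was about as frequent in both. The E-box CACGTG, which overlaps ACGTG and is also read by Myc, was in 2 of the 15 and 3 of the 17, and in 6.02% of all windows. Of the STAT sites, TTCNNNGAA was in none of the 37 and in 7.02% of all windows, and the STAT6-type site with a spacer of 4 bases was in 2 of the 15, 2 of the 17 and 5.85% of all windows. A match is a stretch of letters and not shown to be a bound site. The 250 upstream bases of 3 raised and 3 lowered members are given 5′ to 3′ on the gene's strand, to show that cores occur in both, with the cores and E-boxes of either strand in capitals.
Ldha (chr7:46845554-46845803, plus strand): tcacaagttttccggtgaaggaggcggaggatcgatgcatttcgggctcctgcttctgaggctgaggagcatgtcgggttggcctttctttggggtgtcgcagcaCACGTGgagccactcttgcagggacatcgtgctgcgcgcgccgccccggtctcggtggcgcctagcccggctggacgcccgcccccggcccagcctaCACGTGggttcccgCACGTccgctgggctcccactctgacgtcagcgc
Pgk1 (chrX:106186850-106187099, plus strand): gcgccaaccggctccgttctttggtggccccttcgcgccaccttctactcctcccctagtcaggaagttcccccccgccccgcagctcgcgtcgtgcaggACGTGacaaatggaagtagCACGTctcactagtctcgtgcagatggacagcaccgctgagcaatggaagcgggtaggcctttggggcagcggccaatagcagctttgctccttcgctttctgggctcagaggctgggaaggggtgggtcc
Slc16a1 (chr3:104638414-104638663, plus strand): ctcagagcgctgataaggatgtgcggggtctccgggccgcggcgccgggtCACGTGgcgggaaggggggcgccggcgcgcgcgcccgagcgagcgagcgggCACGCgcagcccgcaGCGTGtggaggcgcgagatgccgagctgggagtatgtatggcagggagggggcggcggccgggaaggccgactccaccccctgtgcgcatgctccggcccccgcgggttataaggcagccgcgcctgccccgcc
Slc16a3 (chr11:120948817-120949066, plus strand): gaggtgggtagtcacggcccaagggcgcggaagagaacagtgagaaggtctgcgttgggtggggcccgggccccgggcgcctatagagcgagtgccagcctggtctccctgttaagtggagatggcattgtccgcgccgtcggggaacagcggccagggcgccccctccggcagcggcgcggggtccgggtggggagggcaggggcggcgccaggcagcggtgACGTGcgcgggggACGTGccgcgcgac
Pfkfb3 (chr2:11553930-11554179, minus strand): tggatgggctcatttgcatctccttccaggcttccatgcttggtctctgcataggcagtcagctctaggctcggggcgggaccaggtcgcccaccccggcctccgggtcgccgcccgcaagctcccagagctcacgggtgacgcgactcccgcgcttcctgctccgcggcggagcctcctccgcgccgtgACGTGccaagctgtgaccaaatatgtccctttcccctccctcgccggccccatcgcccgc
Bnip3 (chr7:138909507-138909756, minus strand): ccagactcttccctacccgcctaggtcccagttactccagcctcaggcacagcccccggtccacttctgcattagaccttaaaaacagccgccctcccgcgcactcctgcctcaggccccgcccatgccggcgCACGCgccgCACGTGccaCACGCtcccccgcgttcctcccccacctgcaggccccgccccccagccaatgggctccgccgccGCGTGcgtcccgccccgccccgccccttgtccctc
Counted on both strands, Ldha had 5 cores and 2 E-boxes, each of which holds a core on either strand, Pgk1 had 2 cores and Slc16a1 had 4. The lowered Slc16a3, Pfkfb3 and Bnip3 had 2, 1 and 5. The Ldha window lies at a start 4329 bases inside the gene span used for its TPM and that of Slc16a3 587 bases inside. Of all windows used, those of Pfkfb2 and Hif1a lay farthest from the start of the gene span, at 13205 and 6492 bases.

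Over all 40 genes, the members held a larger part of the RNA with IL-13. Their share was 0.98% ± 0.0309 with IL-13 and 0.863% ± 0.0167 without it of the recovered reads (SD, n = 12 each), given as a description. The 18 glycolytic enzymes held most of them, with 0.812% ± 0.0296 with IL-13 and 0.688% ± 0.0159 without it. The transporters held 0.0557% ± 0.00229 with IL-13 and 0.0523% ± 0.0020 without it. The HIF targets went the other way, with 0.0502% ± 0.00175 with IL-13 and 0.0619% ± 0.00156 without it. Replicate 2 of IL-33+IL-13+IL-17A had the highest share of all libraries, at 1.05%, beside 0.961% and 0.943% in its 2 companions. Per kilobase of transcript, the most abundant members in Untreated cells were Aldoa at 1882 ± 71.0, Pkm at 1707 ± 23.8, Gapdh at 1599.8 ± 86.8, Ldha at 889 ± 12.9 and Pgam1 at 639.9 ± 11.2 TPM recomputed over transcript length (SD, n = 3). The ranges of 1 SD around Pkm and Gapdh overlapped, and those of the others named did not. At the other end were Pfkm at 2.87 ± 0.566, Slc2a3 at 0.845 ± 0.0510 and Egln3 at 0.766 ± 0.0664.

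Beside IL-13, IL-33 lowered several glycolytic genes, and without IL-13 it called no member. Without IL-13, averaged over the presence and absence of IL-17A, none of all tested genes was called (0% by limma, 656 genes at an unadjusted p under 0.05, 1 of them a member, and 0 members by voom). With IL-33 set against Untreated 0% of genes were called, and with IL-33+IL-17A against IL-17A 0.00757%, a single gene that was lower and no member. For the average, all 38 intervals of the IL-33 effect lay within 0.5 of 0 on either side, the widest being that of Pfkfb2, up to 0.45. In each single comparison 37 did, and the interval of Pfkfb2 reached 0.58 against Untreated and 0.55 beside IL-17A. Beside IL-13, 7 members were lower with IL-33 and Ndrg1 was higher, where 7.01% of all genes were called, 2.53% higher and 4.48% lower. The higher genes made up 46.9% of all calls under median-ratio scaling, against 36.1% with TPM as deposited. Hk3 was also called higher without Untreated replicate 1 or without IL-33+IL-13+IL-17A replicate 2. The 7 were Slc2a1 (-0.25), Pkm (-0.22), Eno1 (-0.19), Gpi1 (-0.14), Pgam1 (-0.14), Slc16a3 (-0.12) and Pgk1 (-0.11). No HIF regulator and no pyruvate dehydrogenase kinase was among them. IL-33+IL-13 against IL-13 called Ndrg1 higher and 5 members lower, namely Slc2a1, Pkm, Eno1, Gpi1 and Pgam1, where 2.57% of all genes were called, 0.832% higher and 1.74% lower. In place of 5, the members called lower numbered 1 without IL-13 replicate 1 or 3 or IL-33+IL-13 replicate 1, 2 without IL-33+IL-13 replicate 3, and 3 without IL-13 replicate 2 or IL-33+IL-13 replicate 2. Ndrg1 lost its call without IL-13 replicate 1 or 2 or IL-33+IL-13 replicate 1. Fitted on the libraries of these 2 groups only, the comparison called 0 members higher and 0 lower. IL-33+IL-13+IL-17A against IL-13+IL-17A called 0 members higher and 4 lower, namely Slc2a1, Pkm, Eno1 and Pgam1, where 3.55% of all genes were called, 1.15% and 2.40%, and higher genes were 43.7% of all calls under median-ratio scaling, against 32.4% with TPM as deposited. Fitted on those 2 groups alone it called 0 members lower.

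**Figure D4:**
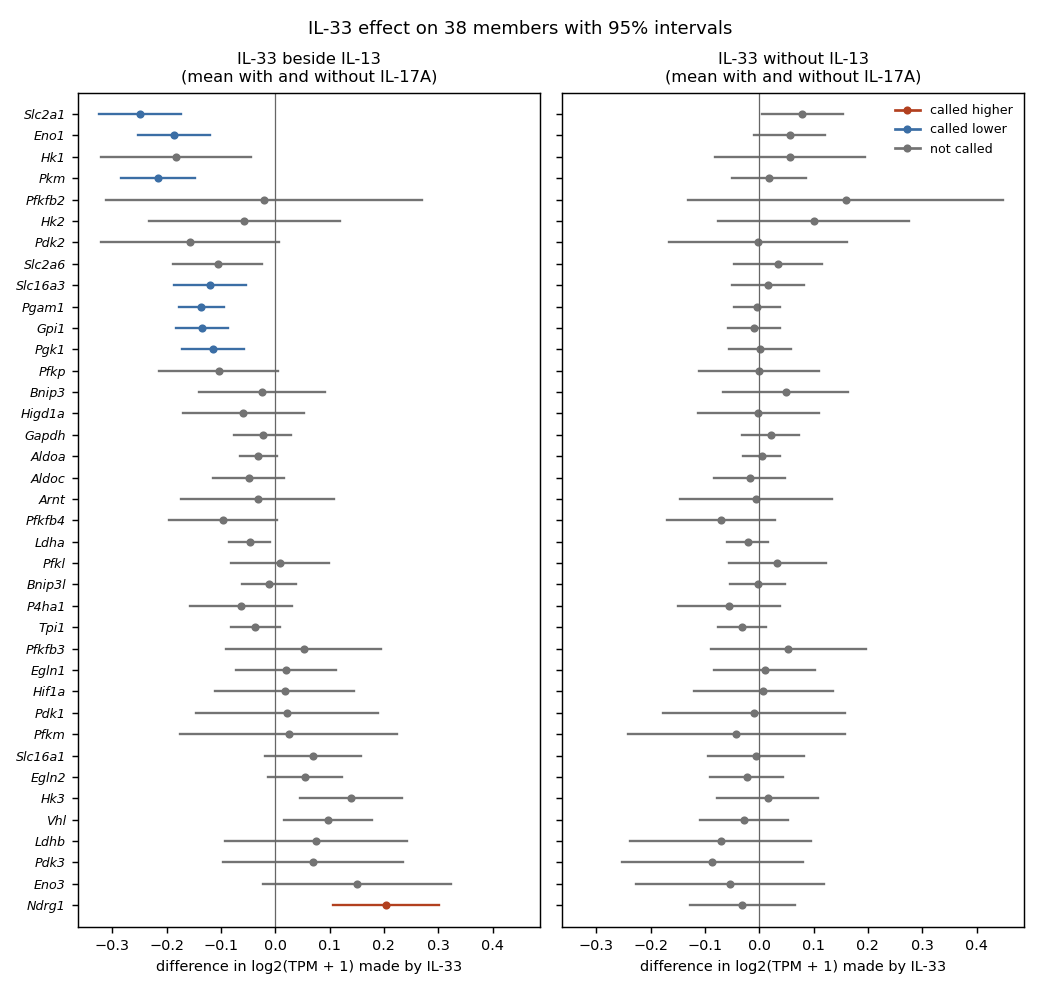
Difference in log2(TPM + 1) made by IL-33 for the 38 tested members with 95% intervals, beside IL-13 (left) and without it (right), each averaged over the presence and absence of IL-17A. Of the intervals on the left, 7 are called lower and that of Ndrg1 is called higher, and on the right none is called.

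Slc2a1 had the largest of these decreases. It had 50.2, 50.4 and 54.3 TPM with IL-33+IL-13, against 60.8, 59.3 and 60.5 TPM with IL-13, and 52.4, 49.4 and 53.4 TPM with IL-33+IL-13+IL-17A, against 62, 62.1 and 64.9 TPM with IL-13+IL-17A. In both pairs every library with IL-33 was lower, and the Untreated libraries had 41.9, 47.6 and 46.1 TPM (limma, -0.25, SE 0.0358, adjusted p = 1.20e-04). Pkm had 534, 609 and 562 TPM with IL-33+IL-13, against 657, 650.2 and 657 with IL-13, and 559, 531 and 577 with all 3 cytokines, against 647, 640.2 and 662 with IL-13+IL-17A. The groups were again apart (limma, -0.22, SE 0.0325, adjusted p = 1.84e-04), and beside IL-33 the IL-13 effect on Pkm was 0.01, or -0.03 with IL-17A as well, and not called. Eno1 had 298, 348 and 315 TPM with IL-33+IL-13, against 367, 354 and 374 with IL-13, and 321, 324 and 321 with all 3 cytokines, against 368, 352 and 376 with IL-13+IL-17A (limma, -0.19, SE 0.0314, adjusted p = 6.76e-04). In TPM Eno1 was lower with IL-33 in every library of both pairs and stayed above the 217, 214 and 221 TPM of Untreated cells. The uncertainty from its copies applies here too. Per M library reads it had 396 ± 31.4 with all 3 cytokines and 429 ± 13.6 with IL-13+IL-17A. Eno1 with its copies had 583 ± 52.8 and 624 ± 18.1 (SD, n = 3 each). The ranges of 1 SD overlapped in both cases.

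Gpi1 had 135, 143 and 142 TPM with IL-33+IL-13, against 162, 156 and 157 with IL-13, and 151, 147 and 153 with all 3 cytokines, against 158, 157 and 165 with IL-13+IL-17A (limma, -0.14, SE 0.0226, adjusted p = 6.01e-04). Pgam1, phosphoglycerate mutase, had 618, 609.9 and 619 TPM with IL-33+IL-13, against 670.3, 654 and 664 with IL-13, and 605, 580.1 and 604 with all 3 cytokines, against 651, 676 and 681 with IL-13+IL-17A (limma, -0.14, SE 0.0198, adjusted p = 1.35e-04). In both genes neither pair overlapped, and the call of Pgam1 was lost under median-ratio scaling and voom. Slc16a3 had 112, 122 and 118 TPM with IL-33+IL-13, against 129, 121 and 128 with IL-13, and 118, 113 and 127 with all 3 cytokines, against 128, 134 and 133 with IL-13+IL-17A. The difference was -0.12 (limma, SE 0.0315, adjusted p = 0.023), and its call was lost in 9 of 33 alternatives, among them voom and leaving out IL-13 replicate 1 or 3, IL-13+IL-17A replicate 2 or 3, IL-33+IL-13 replicate 1 or IL-33+IL-13+IL-17A replicate 2. Its first pair overlapped. Pgk1 had 188, 198 and 195 TPM with IL-33+IL-13, against 217, 205 and 212 with IL-13, and 192, 185 and 191 with all 3 cytokines, against 202, 204 and 204 with IL-13+IL-17A. Neither pair overlapped, and the difference was -0.11 (limma, SE 0.0274, adjusted p = 0.0129), with the call lost under median-ratio scaling and voom. Ndrg1 had 5.63, 5.32 and 5.5 TPM with IL-33+IL-13, against 4.04, 4.03 and 4.6 with IL-13, and 4.66, 4.49 and 5.1 with all 3 cytokines, against 4.15, 4.38 and 4.61 with IL-13+IL-17A. It was higher with IL-33 by 0.20 (limma, SE 0.0461, adjusted p = 0.00876). The pair without IL-17A did not overlap and the other did. Ndrg1 was still far below the 16.3 TPM of the lowest library without IL-13. Hk3 had 389.7, 438 and 397 TPM with IL-33+IL-13, against 345, 376 and 365 with IL-13, and 402, 341 and 410.3 with all 3 cytokines, against 352, 352 and 363 with IL-13+IL-17A. Its difference of 0.14 was not called (limma, SE 0.0444, adjusted p = 0.0709), but it was under median-ratio scaling, voom, array weights and transcript lengths.

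**Figure D5:**
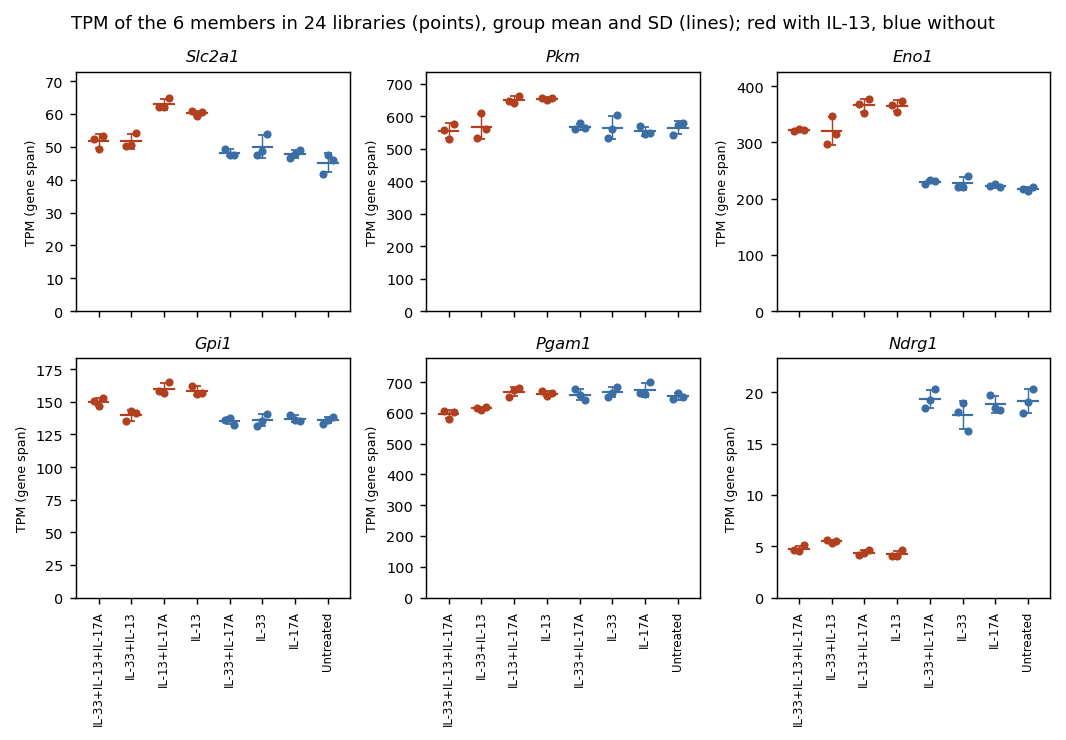
TPM over the gene span of the 5 members whose IL-13 effect differed with IL-33 and of Ndrg1, in each of the 24 libraries with the group mean and SD, for groups with IL-13 (red) and without it (blue). For Slc2a1, Pkm, Eno1, Gpi1 and Pgam1 the first 2 groups, which hold IL-33 beside IL-13, lie below the next 2, which hold IL-13 without IL-33.

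The difference between the IL-33 effects beside and without IL-13 was tested as an interaction, which called 5 members lower and none higher (3.57% of all genes called, 1.46% higher and 2.11% lower). They were Slc2a1 at -0.33 (limma, SE 0.0507, adjusted p = 5.44e-04), Eno1 at -0.24 (SE 0.0445, adjusted p = 0.00276), Pkm at -0.23 (SE 0.0459, adjusted p = 0.00484), Pgam1 at -0.13 (SE 0.028, adjusted p = 0.00902) and Gpi1 at -0.13 (SE 0.032, adjusted p = 0.0321). The calls of Slc2a1, Eno1 and Pkm held in all 33 alternatives run. Among these, the fit on the compared groups alone could not differ, since the interaction uses all 8 groups. Gpi1 lost its call in 12 of them, among them leaving out Untreated replicate 1, IL-13 replicate 1, IL-17A replicate 2 or 3, IL-13+IL-17A replicate 3, IL-33 replicate 3, IL-33+IL-17A replicate 1 or 2 or IL-33+IL-13 replicate 1, and Pgam1 in 3, all of them other scalings or tools. Ndrg1, at 0.24 and not called here (SE 0.0652, adjusted p = 0.053), was called higher without Untreated replicate 1, IL-13 replicate 3, IL-33 replicate 2 or IL-33+IL-13+IL-17A replicate 2. For the interaction voom called Ndrg1 higher (0.31, adjusted p = 0.0222) and Hk3 higher (0.15, adjusted p = 0.0158). It called Hk1 lower (-0.27, adjusted p = 0.0409), and also for averaged IL-33 beside IL-13 (voom, -0.19, adjusted p = 0.0235). Ldha, with an IL-13 effect of 0.95 alone and 0.88 beside IL-33, and Hk2, with 0.70 and 0.65, were not called for the interaction (Ldha 95% interval -0.08 to 0.03, Hk2 95% interval -0.41 to 0.09).

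No member was called for IL-17A in any setting. Averaged over its 4 settings 0% of all genes were called by limma, with 440 genes, 0 of them members, at an unadjusted p under 0.05, and voom called 0 members. The 38 intervals of its averaged effect lay between -0.23 and 0.24. Ldha had 425, 432 and 437 TPM with IL-17A and 414, 418 and 423 TPM untreated, and 771, 790.2 and 771 TPM with IL-13+IL-17A and 813, 797 and 820.2 TPM with IL-13. No member was called for an interaction of IL-17A with IL-13 or with IL-33 by limma or voom (0% of all genes called by limma, 665 and 409 at an unadjusted p under 0.05).

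Neighbouring genes of the pathway, from 5 further lists, are read against the 50.9% of all tested genes that were called for averaged IL-13. Of their 61 tested genes, 40 were called (65.6%). Of 15 tested genes of pyruvate handling, 9 were higher with IL-13, 2 were lower and 4 were not called (73.3% called), with a median of 0.18 beside -0.05 for all genes. Pdp1, the phosphatase that switches pyruvate dehydrogenase back on, had 53.2 ± 2.58 TPM with IL-13 and 32.2 ± 1.43 TPM untreated (SD, n = 3 each) and was higher by 0.63 over the 4 settings (limma, SE 0.0274, adjusted p = 3.60e-13). The complex subunits Pdha1, Pdhb, Dlat, Dld and Pdhx were all called higher, Pdhb by 0.23 (limma, SE 0.0242, adjusted p = 1.10e-07) and Dld by 0.18 (limma, SE 0.0217, adjusted p = 9.86e-07). Pcx, pyruvate carboxylase, had 3.37 ± 0.11 TPM with IL-13 and 1.69 ± 0.158 TPM untreated (SD, n = 3 each) and was higher by 0.46 (limma, SE 0.0471, adjusted p = 1.09e-07).

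Of 18 tested further HIF targets, 5 were higher, 7 were lower and 6 were not called (66.7% called), with a median of -0.05. Ccng2, an atypical cyclin, had 13.7 ± 0.963 TPM with IL-13 and 22.6 ± 2.42 TPM untreated (SD, n = 3 each) and differed by -0.80. Ero1l, the oxidase of protein folding, had 25.2 ± 1.17 TPM with IL-13 and 18 ± 1.61 TPM untreated (SD, n = 3 each) and was higher by 0.42, while Mxi1, an antagonist of Myc, differed by -0.29 and Cited2, a brake on HIF coactivators, by -0.34. The adjusted p of these 4 ran from 1.14e-11 to 1.47e-07 (limma). Of 6 tested further regulators of HIF, 2 were higher, 1 was lower and 3 were not called, a share near the 50.9% of all genes. Epas1, which encodes HIF-2 alpha, had 36.7 ± 1.31 TPM with IL-13 and 24.2 ± 2.92 TPM untreated (SD, n = 3 each) and was higher by 0.62 (limma, SE 0.053, adjusted p = 8.69e-09), a direction opposite to that of Hif1a at -0.17. Siah2, a ubiquitin ligase that degrades prolyl hydroxylases, differed by 0.23 and Rbx1, a subunit of the Vhl ligase, by -0.08.

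Of 17 tested further sugar enzymes and transporters, 6 were higher and 3 were lower, which at 52.9% called lies near the 50.9% of all genes. Gpd1, glycerol 3-phosphate dehydrogenase, which draws triose phosphate off toward glycerolipids, had 50.7 ± 2.45 TPM with IL-13 and 13.9 ± 1.15 TPM untreated (SD, n = 3 each) and was higher by 1.50 (limma, SE 0.0388, adjusted p = 1.26e-16). Eno2, the neuronal enolase, had 14.7 ± 0.954 TPM with IL-13 and 39.998 ± 0.395 TPM untreated (SD, n = 3 each) and differed by -1.21 (limma, SE 0.0359, adjusted p = 9.25e-16), so the third enolase moved with Eno3 and against Eno1. Pck2, the mitochondrial phosphoenolpyruvate carboxykinase, differed by 0.50 and Pgp, a phosphatase of glycolytic side products, by 0.34. Of 5 tested transcription factors of glycolytic genes and relatives of the thioredoxin-interacting protein, 4 were higher and 1 was lower. Myc, which activates many glycolytic genes, had 120.2 ± 4.37 TPM with IL-13 and 40.5 ± 4.39 TPM untreated (SD, n = 3 each) and was higher by 1.40 (limma, SE 0.037, adjusted p = 1.62e-16). Arrdc4 and Txnip, both of which curb glucose uptake, were higher by 0.42 and 0.14, and Mlx, the partner through which glucose sensing reaches them, by 0.10.

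Each combination was also set against Untreated, which these comparisons share. IL-33+IL-13+IL-17A called 12 members higher and 12 lower, where 28.1% of all genes were called, 10.3% higher and 17.7% lower, and higher genes were 51.7% of all calls under median-ratio scaling, against 36.8% with TPM as deposited. IL-33+IL-13 called 12 members higher and 11 lower, where 25.05% of all genes were called, 11.1% higher and 13.95% lower, and its 11 became 6 without Untreated replicate 2 and 7 without IL-33+IL-13 replicate 3. IL-13+IL-17A called 14 members higher and 9 lower, where 29.5% of all genes were called, 13.99% higher and 15.5% lower. IL-33+IL-17A called 0 members by limma and by voom, where 0% of all genes were called and 501 had an unadjusted p under 0.05. Ldha averaged 768 ± 15.6 TPM with IL-33+IL-13+IL-17A, 768 ± 20.3 with IL-33+IL-13, 777 ± 11.1 with IL-13+IL-17A, 421 ± 2.44 with IL-33+IL-17A and 418 ± 4.73 untreated (SD, n = 3 each).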

How the data were processed

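Total RNA of 24 libraries was sequenced on a NovaSeq6000, per the labels' protocols. The submitters' processing notes name STAR and the build mm10, and the sources used here give neither versions nor the counting tool. The authors deposited 1 table per library with a TPM value for 17017 genes, over a length equal to the gene span. Reads were recovered as whole multiples of 1 constant per library, and 89.9% to 91.4% of values up to 20 reads came out whole within 0.05. The 13215 genes reaching 1 TPM in 3 or more libraries were fitted on log2(TPM + 1) with limma-trend (limma 3.58.1, R 4.3.3), with 8 group means and 16 residual degrees of freedom, in 23 comparisons; the fit was tested on simulated data. Fold changes on this scale understate those of low genes. Of 40 members, Slc2a3 and Egln3 failed the filter. A second Aldoa row, of 41 member rows, was not used.

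Members and lists were chosen with earlier results of these data known. All members are accounted for. Values per library are given for up to 3 members of a role with the largest averaged IL-13 effect and for those called for an averaged IL-33 effect, and up to 4 called genes are named per further list, with a few more named after their values were seen. Isozyme shares and levels between genes use recovered reads over mean transcript length in GENCODE M21 (GRCm38). Copies were sought with blastn 2.17.0 at 95% identity over 200 bases. Replicate numbers follow accession order and only name libraries. Lymphocyte and erythroid markers were not analysed here. Coordinates are 1-based on mm10, with 1 base taken off the deposited stop. Alternatives were pseudocounts of 0.1 and 5 TPM, no filter, median-ratio scaling, transcript lengths, voom on recovered reads, array weights, the compared groups alone, leaving out each library, and leaving out the 3 that stood apart.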

Additional observations from a re-analysis of the deposited data

Results flagged for a closer look

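For 5 members the effect of IL-13 differed between cells with and without IL-33 by a test of that difference. The IL-13 effect with IL-33 minus that without was -0.33 for Slc2a1, -0.24 for Eno1, -0.23 for Pkm, -0.13 for Gpi1 and -0.13 for Pgam1 on the log2(TPM + 1) scale (limma, adjusted p of 5.44e-04 for Slc2a1, 0.00276 for Eno1, 0.00484 for Pkm, 0.0321 for Gpi1 and 0.00902 for Pgam1). The IL-13 effect on Slc2a1 was 0.04 beside IL-33, which was not called, and 0.41 for IL-13 alone, which was. On Pgam1 it was -0.12 beside IL-33, which was called, and 0.02 for IL-13 alone, which was not. Pgam1 lost the call under median-ratio scaling, transcript lengths and voom, and Gpi1 in 12 alternatives.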

How the results depend on the processing

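No paired analysis was possible because the labels number the libraries through the whole series and not within groups; the replicate numbers used here follow accession order and only name libraries. The averaged IL-13 effect was called for 15 members higher and 17 to 19 lower whichever library was left out, and no called effect of a member changed sign. Refits were counted for all 38 tested members for averaged IL-13. For its 4 settings, for averaged IL-33 beside IL-13 and for the interaction of these 2 cytokines they were counted for called members only. Of these 4851 refits, 137 lost a call and 1 gained it. For averaged IL-13 and for the interaction, the refit on the compared groups alone uses all 8 groups and repeats the main fit. Fitted on the compared groups alone, IL-13 beside both cytokines called 7 higher and 7 lower (12 and 13 as reported), IL-33 beside IL-13 called 0 and 0 (1 and 5) and beside IL-13+IL-17A 0 lower (4), IL-33 averaged beside IL-13 called 0 higher (1), IL-33+IL-13 against Untreated called 6 lower (11) and the triple combination 6 and 5 (12 and 12). Under median-ratio scaling IL-13 beside both called 8 lower. Under median-ratio scaling, and likewise voom, IL-33 beside IL-13 called 2 higher and 3 lower, and beside IL-13+IL-17A 1 and 2. Averaged beside IL-13, IL-33 called 2 higher under median-ratio scaling, voom, array weights and without the 3 libraries apart, and 3 with transcript lengths; array weights gave 11 lower (7). For the single comparison beside IL-13, transcript lengths, array weights and leaving out the 3 libraries gave 2 higher, and array weights 8 lower; beside IL-13+IL-17A, array weights gave 1 higher and 7 lower, and leaving out the 3 libraries 1 higher. The interaction called 1 higher at a pseudocount of 0.1 TPM and with transcript lengths, 2 under median-ratio scaling, voom, array weights and without the 3 libraries (0), with 3 lower under median-ratio scaling and 8 under array weights (5). Leaving out 1 library, IL-33 beside IL-13 called 0 to 1 higher and 1 to 6 lower, its average beside IL-13 1 to 2 higher, IL-33+IL-13 against Untreated 6 to 11 lower and the interaction 0 to 1 higher. The cause was not tested. A median standard error of 0.102 for a single comparison and 0.0511 for the averaged IL-13 effect limits what can be seen, most of all for genes at few TPM such as Pfkfb2 and Pfkm.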

Other observations

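Of the 61 tested genes of the 5 further lists, 5 were called for averaged IL-33 beside IL-13 (8.2%), where 7.01% of all genes were called, so the share lies near that of all genes. Pcx, pyruvate carboxylase, had 2.12, 2.03 and 2.0 TPM with IL-33+IL-13 and 3.29, 3.33 and 3.49 TPM with IL-13, and its averaged difference was -0.54 (limma, SE 0.0665, adjusted p = 2.23e-05). Gpd1 had 36.6, 41.8 and 41.4 TPM with IL-33+IL-13 and 53.5, 48.8 and 49.9 TPM with IL-13 and differed by -0.35 (limma, SE 0.0549, adjusted p = 2.99e-04). Eno2, which IL-13 lowered, was higher with IL-33 by 0.35 (limma, SE 0.0507, adjusted p = 1.19e-04), at 18.6, 21 and 20.6 TPM with IL-33+IL-13 and 13.6, 15.4 and 15.1 TPM with IL-13. Txnip differed by -0.24 and Galm, which interconverts forms of hexose sugars, by -0.18. The groups with IL-33 and IL-13 did not overlap those with IL-13 alone for Pcx, Gpd1 and Eno2. For these 3 genes the IL-33 effect beside IL-13 differed from that without it, by -0.54 for Pcx, -0.33 for Gpd1 and 0.27 for Eno2 (limma interaction, adjusted p of 0.00177, 0.0205 and 0.039).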
